A study of Mus musculus with 199 samples.

Results

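Small groups of tumour cells cut from liver colonies were compared with pool-and-split controls, which are meant to show the noise of the method. The comparison was between 31 captures of KP1 cells from the livers of F1 mice and 24 pool-and-split controls labelled as F1 liver colonies too, chosen by their sample labels. These are 55 of the 199 libraries of the series. KP1 is a mouse small-cell lung cancer line, which the labels give as Rb1-/-Trp53-/-, and captures and controls share that genotype. The series' design names immunocompromised and immunocompetent hosts, and the F1 mice are taken here as the immunocompetent ones. Frozen tissue was cut at 8 µm, 10 cells were taken per library by laser capture microdissection, and poly(A) RNA was amplified by PCR. The labels name no promoter, treatment, age or number of mice and of pools, so every p-value speaks for libraries and not for animals.

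A pool-and-split control starts from pooled captured material that is divided into portions of the capture's size before amplification. Transcripts that differ from one spot of tissue to the next are mixed in the pool, so portions of 1 pool differ by sampling and amplification, while captures add differences between spots. Pools of different starting material would differ as well, and the number of pools is not known here. Small-cell lung cancer is a neuroendocrine tumour that divides quickly, and in the liver its cells lie among hepatocytes, which secrete plasma proteins, sinusoidal endothelium, Kupffer cells and other macrophages, stellate cells and blood. A transcript of a host cell in a library may come from a whole cell, from part of a cell in the section or from free RNA, and fewer cells of a type and less RNA per cell cannot be told apart in such libraries.

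The 2 kinds of library differed as wholes. Total counts were 1682735 to 5543519 (median 4710470) in captures and 2275333 to 5527521 (median 4146302) in pools. Spike-in transcripts took 0.639 to 11.2% of counts in captures (median 2.16%) and 2.12 to 20.7% in pools (median 13.2%), so pools held less cellular RNA per spike-in; the amount added is not given in the labels. With every library thinned to 1646338 counts, 5717 to 10101 genes were detected in captures (median 8114) and 4003 to 8616 in pools (median 7152.5). Before thinning, 5 pools stood apart with 4634 to 5453 genes detected and spike-in shares of 12.7 to 20.7%, while no other pool had fewer than 6327 genes. The tests of spread and mean, and pair correlations of some lists, were also run without them. Slopes on index genes and excess spread were not. A pseudogene, Rpl19-ps11, split the libraries into 26 captures and 19 pools of a high level and 5 and 5 of a low level. The labels do not name this split. The low-level libraries are captures 29 to 33 and pools 21 to 25, and the 5 pools that stood apart are pools 1 to 5. Libraries close in number may thus not be independent, as the tests take them to be. Tumour identity was plain in both kinds: transcripts of Chga, a protein of neuroendocrine secretory granules, were counted in all 31 captures and all 24 pools.

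Hepatocyte transcripts covaried between captures, with the widest gap from pools among the lists compared, while globin genes had the higher correlations in both. Summed over 26 hepatocyte genes, the level in captures ran from 0 to 2802 CPM (counts scaled to a common library total) with a median of 284 CPM, and in pools from 18.2 to 1467 CPM with a median of 455 CPM. The groups overlapped, but several captures lay above every pool, and 10 captures against 3 pools exceeded 1000 CPM. Captures held counts for 0 to 24 of the 26 genes (median 11) and pools for 1 to 16 (median 9.5). In captures the sum had a Spearman's rho of 0.05 with the spike-in share and of 0.18 with the number of genes detected, over 31 libraries that share the assay. In pools these were -0.19 and 0.67 over 24 libraries.

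Within the hepatocyte list, genes rose and fell together across captures and much less so across pools. Over the 153 pairs of the 18 members whose mean reached 5 CPM, the median Spearman's rho was 0.62 in captures and 0.16 in pools, beside 0.07 and 0.09 over pairs of all tested genes. In captures 114 pairs had a rho over 0.5, and in pools 22 did. This difference between captures and pools was not tested. Some members had counts in few pools, such as Fabp1, Serpina3k and Apoc3 in 5 of 24 each. Weaker covariation and rarer detection in pools therefore cannot be told apart. The median rho in captures stayed between 0.54 and 0.65 when libraries were thinned to one depth, scaled by TMM, freed of the spike-in share or limited to the high Rpl19-ps11 level. In pools it was 0.05 without the 5 pools that stood apart. In colonies of nude mice, which are immunocompromised, the same pairs had a median rho of 0.27 in captures, and 136 of them had one of 0.09 in pools.

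Albumin served to follow this class gene by gene across the whole table. Alb (chromosome 5, 90460897 to 90476602, GRCm38), the main plasma protein of hepatocytes, had 0 to 542 CPM in captures (median 8.56, counts in 24 of 31) and 0 to 385 CPM in pools (median 0.25, counts in 13 of 24). The groups overlapped, and the mean did not pass the test (log2 fold change 0.59 ± 0.96 SE, edgeR adjusted p 0.783). Alb was chosen as an index after its values were seen, because the gene that the rule picked, Rbp4, did not follow the other hepatocyte genes.

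In captures, limma called 15 of 8758 genes as rising with Alb (0.171% called) and none as falling, with 580 and 32 genes at an unadjusted p under 0.05. In pools it called none in either direction, with 592 and 41 at that level. Of the 15, 7 are members of the hepatocyte list: Apoa1, Apoc3, Fabp1, Serpina3k, Serpina1c, Mup3 and Mup20. The others are Ttr, Apoc1, Mup1, Mup7, Mup14, CR550303.1, 9530077C05Rik and Rit1. CR550303.1 has the same counts as Mup14 in all 55 libraries and is placed by the table on a patch scaffold, so that pair is 1 measurement.

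Rit1 encodes a small GTPase of the Ras family. Ttr, which carries thyroid hormone and retinol, had a slope of 0.60 ± 0.10 (SE, log2 per log2) on Alb in captures and 0.11 in pools. Apoa1, the main protein of high-density lipoprotein (chromosome 9, 46228580 to 46230466), had 0 to 1238 CPM in captures (median 1.06) and 0 to 123 CPM in pools (median 0.13). Its slope on Alb was 0.69 ± 0.13 in captures (limma adjusted p 0.0118) and 0.24 in pools.

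Alb and Apoa1 transcripts were counted together in 17 captures, and Alb without Apoa1 in 7. In pools they were together in 10 and Alb stood alone in 3. Fabp1, a cytosolic fatty acid carrier, had a slope of 0.66 ± 0.13 in captures and 0.02 in pools, and Serpina3k, a protease inhibitor, 0.60 ± 0.11 and 0.04. Both had counts in only 5 pools, which limits their slopes there. All 17 other members of the list had a positive slope in captures and 15 in pools, with medians of 0.48 and 0.08, beside 0.05 over all genes in each, of which 66.6% and 64.5% had a positive slope. The test of the slope difference itself called no gene for Alb, with 434 of 8758 at an unadjusted p under 0.05 in limma, and Apoa1 had a difference with adjusted p 0.945, so covariation particular to captures was not shown gene by gene.

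The calls for Alb changed with the setting. Without the 2 captures farthest from the median of Alb, 5 genes were called, and with ranks in place of levels none was, while the slopes of Ttr, Mup1, Apoa1, Serpina3k and Fabp1 stayed between 0.66 and 0.73 on the rank scale. Among captures with a high Rpl19-ps11 level alone, Alb and Apoa1 had a Pearson's r of 0.75 (n = 26), against 0.01 in pools of that level (n = 19). Spearman's rho was 0.85 and 0.30 in the same libraries.

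The promoters of genes that rose with Alb are shown because HNF1, a liver factor, is known to bind near the start of several hepatocyte genes. RefSeq promoters on GRCm38.p6 were found for 9 of the 16 genes, Alb included, and were searched for GTTAAT, a part of the HNF1 site, on both strands (ATTAAC on the other), from 250 bases before to 50 after the start. It occurred in 3 of the 9, which were Alb, Fabp1 and Serpina1c, and in 7.1% of 32851 promoters of that length. A match is only these letters in this window. The 250 bases before the start follow, 5′ to 3′ on the gene's strand, with the match in capitals, for Alb at chr5:90460620-90460869 (+), Fabp1 at chr6:71199629-71199878 (+) and Serpina1c at chr12:103904951-103905200 (-).
Alb: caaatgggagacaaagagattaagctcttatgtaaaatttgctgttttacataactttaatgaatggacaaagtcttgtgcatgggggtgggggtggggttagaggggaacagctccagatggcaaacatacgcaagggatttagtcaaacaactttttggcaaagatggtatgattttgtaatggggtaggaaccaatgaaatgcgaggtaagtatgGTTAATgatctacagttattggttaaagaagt
Fabp1: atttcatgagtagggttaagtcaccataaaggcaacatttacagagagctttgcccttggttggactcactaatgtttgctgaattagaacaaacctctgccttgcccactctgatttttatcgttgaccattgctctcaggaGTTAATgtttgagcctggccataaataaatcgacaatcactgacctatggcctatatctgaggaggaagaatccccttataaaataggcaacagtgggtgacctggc
Serpina1c: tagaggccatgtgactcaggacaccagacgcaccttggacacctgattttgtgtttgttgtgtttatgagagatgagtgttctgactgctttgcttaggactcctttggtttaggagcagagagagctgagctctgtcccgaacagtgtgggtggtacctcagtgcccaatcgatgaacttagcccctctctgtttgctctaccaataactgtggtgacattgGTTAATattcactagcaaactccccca
The first base of the match lies 32 bases before the RefSeq start in Alb, 107 in Fabp1 and 27 in Serpina1c. The gene coordinates place the starts elsewhere, at 71199827 in Fabp1, 103904887 in Serpina1c and, as given above, later in Alb. Distances from those starts differ, and by them the end of the Fabp1 stretch lies inside the gene.

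The urinary proteins encoded by the Mup cluster on chromosome 4, small lipid carriers that the liver secretes, were counted at higher levels in many captures than in most pools. Summed over the 21 Mup genes with counts, the level was 0 to 3755 CPM in captures (median 403, counts in 25 of 31) and 0 to 1719 CPM in pools (median 24.2, counts in 19 of 24). Mup copies are nearly identical, so the counting may have moved reads between them and single copies are uncertain. Mup7 made up 22.2% of the summed Mup level in captures and 3.27% in pools. Mup1 had a highest level of 1135 CPM in captures and 677 CPM in pools, with counts in 23 captures and 6 pools.

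Rbp4 (chromosome 19, 38116620 to 38125321), the plasma retinol carrier, had the highest mean log level of the list and so was its index by rule. It had 0 to 836 CPM in captures (median 23.9) and 0 to 1354 CPM in pools (median 24.9). Its levels did not follow Alb (Pearson's r 0.22 and Spearman's rho 0.18 over 31 captures, permutation p 0.243 and 0.318, adjusted p 0.524 and 0.53 over 20 pairs, r 0.25 without the 2 extreme captures). In captures 1 of 8758 genes rose with Rbp4 (0.0114% called) and none fell, with 707 and 42 at an unadjusted p under 0.05 in limma. That gene was Fam193a, with a slope of 0.54 ± 0.10 (limma adjusted p 0.0404) and levels of 0 to 129 CPM in captures. The call was lost with a pseudocount of 5, with TMM scaling, with ranks and without the 2 extreme captures. None of the 17 other hepatocyte genes was called for Rbp4.

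**Figure D1:**
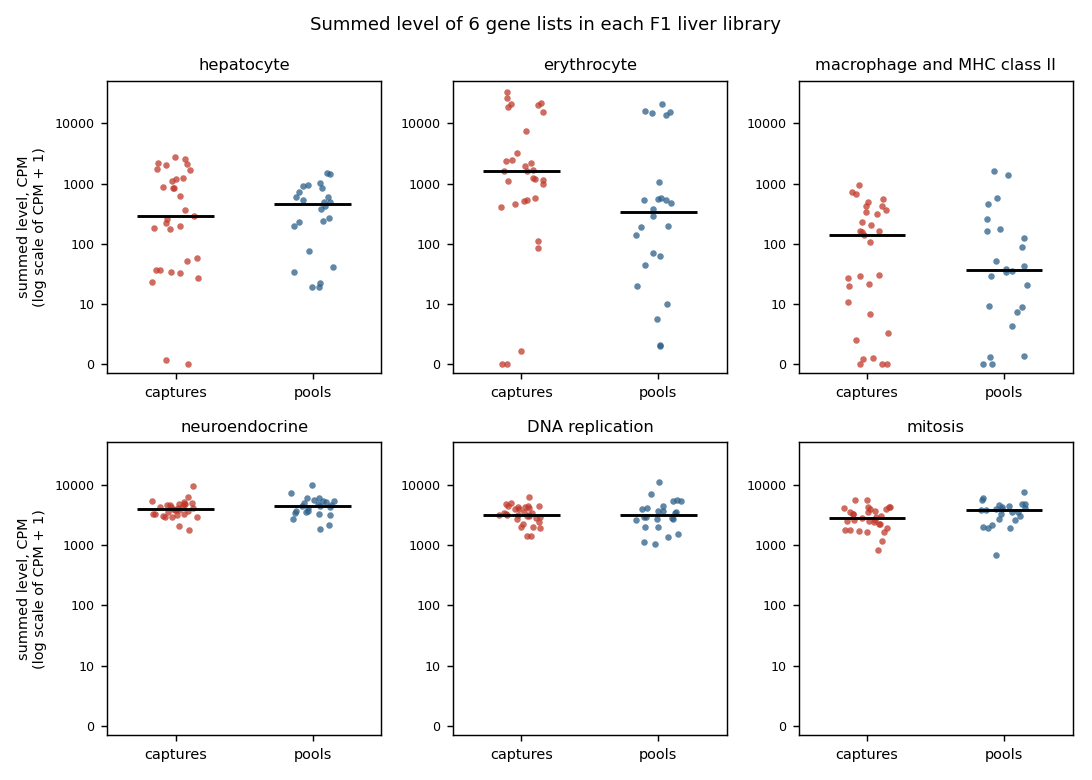
Summed level of 6 gene lists in each library, in CPM on a log scale of CPM + 1, for 31 captures and 24 pools; each point is a library and each bar a median. The 3 host lists reach from near 0 to at least 943 CPM in both groups, and the 3 tumour lists stay between 677 and 11103 CPM.

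Haemoglobin transcripts varied widely in level in captures and in pools alike. The erythrocyte list summed to 0 to 32921 CPM in captures (median 1622), up to 3.29% of all counts, and to 1.01 to 20604 CPM in pools (median 334). The pools left a gap, with 5 at 13754 CPM or more and 19 at 1078 CPM or less. Whether these came from different pools was not tested. Hbb-bs, an adult beta globin (chromosome 7, 103826534 to 103828096), had 0 to 13489.8 CPM in captures (median 622) and 0 to 10039.5 CPM in pools (median 75.8). The groups overlapped, and the mean did not pass the test (log2 fold change 0.39 ± 0.91 SE, edgeR adjusted p 0.858).

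The 3 other globin genes were the only genes called as rising with Hbb-bs in captures (0.0343% of 8758 called), and all 3 were also among the 6 called in pools (0.0685% called). Hba-a2, an adult alpha globin (chromosome 11, 32296489 to 32297298), had a slope on Hbb-bs of 0.96 ± 0.07 in captures and 0.69 in pools, Hba-a1 0.90 ± 0.07 and 0.71, and Hbb-bt 0.83 ± 0.12 and 0.74. No gene was called for a slope difference, with 530 at an unadjusted p under 0.05 in limma. Near-identical globin copies share reads, so the 4 genes are not independent. Alas2, which makes haem in erythroid cells, had counts in 10 of 31 captures and 2 of 24 pools, at up to 230 CPM and 4.36 CPM. The erythroid membrane gene Slc4a1 had counts in 1 capture, and Hemgn, a nuclear protein of erythroid precursors, had none in any library.

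Captures rich in haemoglobin also tended to hold more albumin. Across 31 captures, Hbb-bs and Alb had a Pearson's r of 0.48 (permutation p 0.00537, adjusted p 0.0358 over 20 pairs) and a Spearman's rho of 0.47 (permutation p 0.008, adjusted p 0.0651), and r was 0.39 without the 2 captures of most extreme Hbb-bs. Within the 26 captures of high Rpl19-ps11 level r was 0.44, and the 5 others were too few. In pools r was 0.31 (n = 24, permutation p 0.147, adjusted p 0.395) and rho 0.37 (permutation p 0.074, adjusted p 0.313). The difference between captures and pools was not tested. In captures the rank measure missed the threshold after adjustment. Genes of different lists also covaried in pools: Rbp4 and Mki67 had a rho of 0.61 there (permutation p 0.00175, adjusted p 0.0175). Their Pearson's r was 0.46 (permutation p 0.0222, adjusted p 0.148), and in captures their rho was 0.19.

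**Figure D2:**
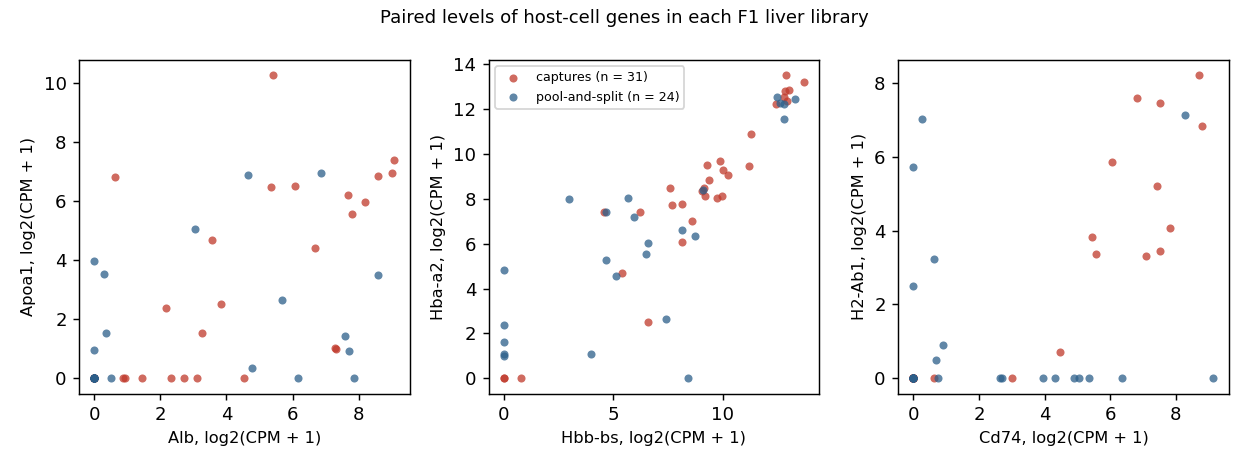
Level of Apoa1 against Alb, Hba-a2 against Hbb-bs and H2-Ab1 against Cd74, each as log2(CPM + 1); red points are 31 captures and blue points 24 pools. Globin genes rise together in both groups; H2-Ab1 and Cd74 have an r of 0.92 in captures and 0.01 in pools, and the difference of their slopes did not pass the test.

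Antigen-presenting cells showed in a part of the captures. The macrophage and MHC class II list summed to 0 to 943 CPM in captures (median 137), with 3 captures at 0, and to 0 to 1632 CPM in pools (median 36.0), with 2 pools at 0. The groups overlapped, with the highest level in a pool. The 28 pairs of tested members had a median rho of 0.48 in captures and 0.24 in pools, but 0.31 and 0.29 with the spike-in share regressed out. Of the 20 markers, Clec4f and Timd4, which mark Kupffer cells, and Marco had no counts in any of the 55 libraries, and Vsig4 had counts in 1 capture.

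Cd74, the chaperone of MHC class II, had 0 to 449 CPM in captures (median 0, counts in 14 of 31) and 0 to 568 CPM in pools (median 0.65, counts in 15 of 24). H2-Ab1, a class II beta chain (chromosome 17, 34263209 to 34269418), had 0 to 295 CPM in captures (counts in 12 of 31) and 0 to 140 CPM in pools (counts in 7 of 24). Every capture with H2-Ab1 counts also held Cd74, and 2 captures held Cd74 alone, whereas 5 pools held both and 10 held Cd74 alone.

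H2-Ab1 was the 1 gene of 8758 called as rising with Cd74 in captures (0.0114% called), with a slope of 0.74 ± 0.07 (limma adjusted p 5.55e-09) against 0.01 in pools. No gene was called in pools, with 564 rising and 22 falling at an unadjusted p under 0.05. The slope difference of H2-Ab1 was 0.74 ± 0.16 and did not pass the test (limma adjusted p 0.110). With ranks the call in captures was lost, at a slope of 0.89 on the rank scale, and within captures of high Rpl19-ps11 level r was 0.91 (n = 26). All 7 other tested members of the list had a positive slope on Cd74 in captures and 5 in pools, with median r of 0.55 and 0.06, beside 67.9% and 65.0% of all genes with a positive slope. Lyz2, the lysozyme of myeloid cells, and C1qb, a complement subunit of macrophages, had r of 0.62 in captures each and passed no adjusted threshold. Csf1r, the growth factor receptor of macrophages, did not follow Cd74 in captures, with an r of 0.07 against 0.29 in pools.

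Genes of lymphocytes, endothelium and neutrophils were sparse. T and natural killer (NK) cell genes summed to 0 to 224 CPM in captures (median 1.22) and 0 to 269 CPM in pools (median 0.95). Of these 15 genes 10 had counts, led by Ccl5 and Lck at 35.5% and 20.5% of the capture sum. Cd3e, Trac, Trbc2, Gzmb and Ncr1 had no counts in any library. Endothelial genes summed to 0.42 to 133 CPM in captures and 0.38 to 287 CPM in pools. Of these 12 genes 9 had counts, led by Fcgr2b and Eng at 29.6% and 22.6% of the capture sum. Clec4g, Lyve1 and Oit3, markers of liver sinusoids, were at 0 counts throughout. B cell and plasma cell genes reached 53.2 CPM in captures and 199 CPM in pools, and neutrophil genes 161 and 108 CPM.

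The stellate and fibroblast list reached 854 CPM in captures (median 182) and 1085 CPM in pools (median 206), led by Des, the muscle-type filament protein of stellate cells, at 42.8% of the capture sum. Its 21 pairs of tested genes had a median rho of 0.34 in captures and 0.20 in pools. Krt7, a keratin of bile ducts, led the cholangiocyte list at 68.2% of the capture sum, with 0 to 608 CPM in captures and 0 to 417 CPM in pools.

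**Figure D3:**
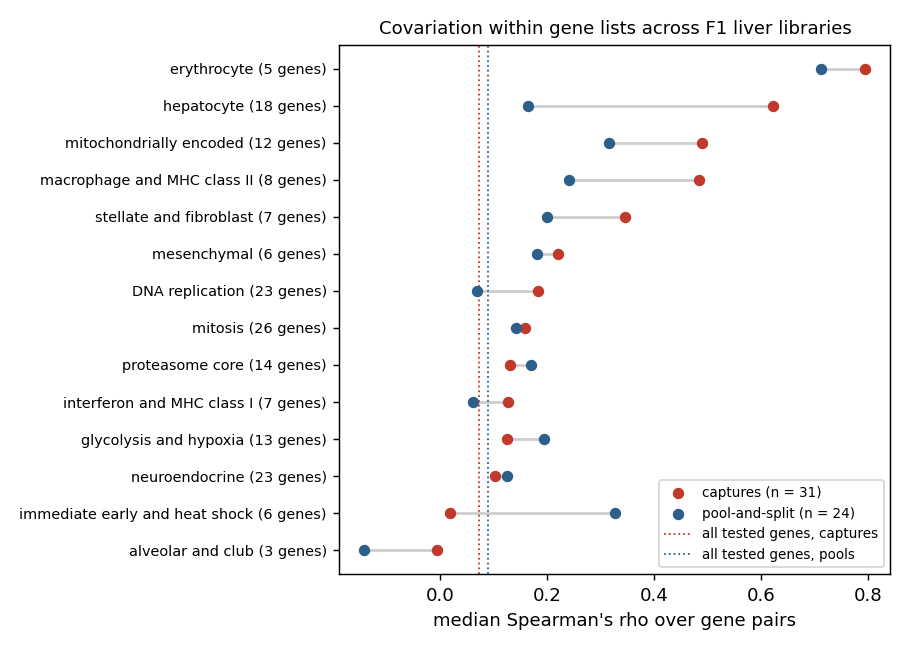
Median Spearman's rho over pairs of genes within each list with at least 3 tested members, in 31 captures (red) and 24 pools (blue); dotted lines mark the medians over all tested genes, 0.07 and 0.09. The hepatocyte list has the widest gap between captures and pools on the side of captures, and cycle and neuroendocrine lists lie near the dotted lines.

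Cell cycle genes were abundant in every library, and none of the 49 tested was called for a larger spread between captures, beside 0.537% of all genes. The mitosis list summed to 825 to 5644 CPM in captures (median 2817) and 677 to 7466 CPM in pools (median 3812), and the DNA replication list to 1391 to 6350 CPM (median 3194) and 1028 to 11103 CPM (median 3189). The groups overlapped. Over pairs of mitosis genes the median rho was 0.16 in captures and 0.14 in pools, and over replication genes 0.18 and 0.07. In the colonies of nude mice these were 0.26 and 0.09 for mitosis and 0.27 and 0.08 for replication.

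Mki67, a protein of dividing nuclei (chromosome 7, 135689784 to 135716361), was the index by rule, with 63.0 to 4379.7 CPM in captures (median 507) and 2.11 to 1671 CPM in pools (median 441). No gene was called as rising or falling with it in captures (0% called), with 551 and 80 at an unadjusted p under 0.05 in limma. Without the 2 captures of most extreme Mki67, 7 genes were called. In pools 24 genes rose with Mki67 (0.274% called), among them Birc5 (slope 0.91, adjusted p 0.0443) and Incenp (slope 0.86, adjusted p 0.0443), which encode partners in the chromosomal passenger complex of mitosis. Incenp is in no list and was named after its value was seen; of the 25 list members tested, Birc5 alone was called in pools. The slopes of these genes in captures were 0.14 for Birc5 and 0.15 for Incenp, and no slope difference was called, with 652 genes at an unadjusted p under 0.05. Of the 25 other mitosis genes, 16 had a positive slope on Mki67 in captures and 24 in pools, beside 65.8% and 81.6% of all genes.

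Neuroendocrine transcripts varied little in sum, with an SD of 0.45 in captures and 0.54 in pools on the log2 scale. The list summed to 1802 to 9587 CPM in captures (median 3917) and 1838 to 9896 CPM in pools (median 4417), against an SD of 3.06 and 2.02 for the hepatocyte list. Ddc, which makes dopamine and serotonin (chromosome 11, 11814101 to 11898144), and Uchl1, a neuronal ubiquitin hydrolase, gave 28.7% and 25.1% of the capture sum. Ddc had 231 to 3311 CPM in captures (median 1038) and 87.0 to 7108 CPM in pools (median 1166). No gene was called as covarying with Ddc in captures or in pools (0% called in each). At an unadjusted p under 0.05 in limma, 351 genes rose and 116 fell with Ddc in captures, and 58 rose and 493 fell in pools.

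Over pairs of neuroendocrine genes the median rho was 0.10 in captures and 0.13 in pools. Mki67 and Ddc rose together across captures, with a Pearson's r of 0.51 (n = 31, permutation p 0.00279, adjusted p 0.0279 over 20 pairs) and a Spearman's rho of 0.46 (permutation p 0.00977, adjusted p 0.0651). Pearson's r was 0.46 without the 2 captures of most extreme Mki67 and 0.56 within the 26 captures of high Rpl19-ps11 level. In pools it was -0.18 (n = 24, permutation p 0.364, adjusted p 0.641), and the difference between the groups was not tested. Calca and Grp, neuropeptide genes of pulmonary neuroendocrine cells, reached 48.6 and 29.0 CPM in captures, and Dlk1 had no counts there.

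Genes whose spread between captures exceeded the spread between pools were few, and none belonged to a list. Spread was how far each library lay from its group's median on the log2(CPM + 1) scale, in either direction, compared gene by gene. Of 8759 genes whose mean reached 5 CPM, 130 were called by limma (1.48% called), 47 with larger spread in captures (0.537% called) and 83 with larger spread in pools (0.948% called). Without the 5 pools that stood apart, 12 genes had larger spread in captures and 3 in pools, so most calls in both directions were lost with them. Over all tested genes the median difference was -0.16, and 38.8% of genes had the larger deviation in captures.

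Among 178 list members tested, none had a call of larger spread in captures, and 2 had one of larger spread in pools, Cdk1 and Psma4. At an unadjusted p under 0.05 in limma, 9 members had larger spread in captures: Vim, Tyrobp, Pcsk1, Mup3, Serpina3k, Fcer1g, Fabp1, Alas2 and Cdc6. These are 5.06% of the members, beside 4.87% of all genes. At that level 36 members (20.2%) had larger spread in pools, beside 12.9% of all genes, and 11 of them were among the 14 proteasome core genes. Of the 9, 3 are hepatocyte and 2 macrophage genes. With the deviation taken from the group mean, 354 genes had larger spread in captures and 740 in pools, and 10 list members were called for captures: Alas2, Apoa1, Col3a1, Fabp1, Fcer1g, Hp, Serpina3k, Sftpc, Tyrobp and Vim. These had counts in 2 to 12 of the 24 pools, so spread and level cannot be told apart for them either. In that setting 28 list members were called for pools, among them Cdk1, Aurkb and Plk1 of the mitosis list and 8 proteasome core genes.

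The hepatocyte list had a median difference in spread of 0.33 (13 of 18 members positive), the macrophage list one of 0.83 (7 of 8 positive) and the mesenchymal list one of 0.58 (5 of 6). The mesenchymal sum had a median of 906 CPM in captures of low Rpl19-ps11 level and 71.0 CPM in those of high level. In pools these were 76.5 and 52.8 CPM, and the part of that split in the spread was not tested. The erythrocyte list had one of -0.60 (1 of 5 positive). Members that are near 0 in pools, such as Fcer1g with a mean of 9.38 CPM in captures and 0.08 CPM in pools, had to have a small spread there, so the list medians carry the same limit. For the mitosis list it was -0.57 (0 of 26 positive), for neuroendocrine genes -0.35 (5 of 23), for DNA replication -0.38 (4 of 23) and for the proteasome core -0.99 (0 of 14).

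The 47 genes of larger spread in captures had lower levels in pools. All 47 had the higher mean in captures, with a median of 24.0 CPM against 1.61 CPM, and counts in a median of 23 of 31 captures against 8 of 24 pools. Of all 8759 tested genes 3905 had the higher mean in captures, with medians of 23.2 CPM against 28.0 CPM. Their counts were in a median of 27 captures and 17 pools. When a gene is at 0 in most pools its deviation there is close to 0, so a difference in level and a difference in spread cannot be told apart for these genes. Restricted to genes with counts in at least 50% of the captures and of the pools, 4 genes were called for captures: Hdac7, Ptprd, Atg9a and Exosc2, named from that list after it was seen. With the spike-in share regressed out of the levels, 46 genes had larger spread in captures and 87 in pools. Among the 16 captures and 7 pools with a spike-in share of 2 to 12%, which are fewer libraries, no gene was called, with 211 genes larger in captures and 155 larger in pools at an unadjusted p under 0.05 in limma.

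**Figure D4:**
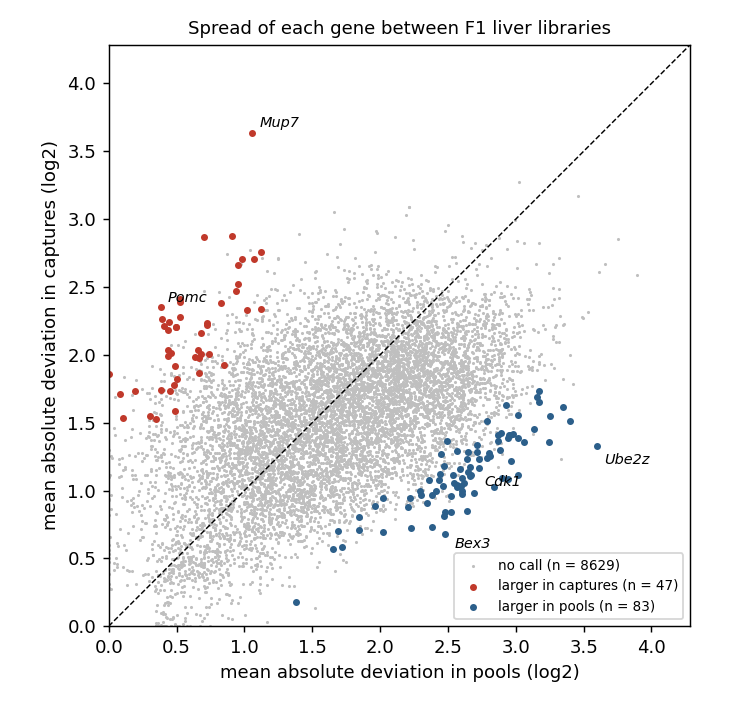
Mean distance of libraries from their group's median, on the log2(CPM + 1) scale, for each of 8759 genes, in captures against pools; red marks 47 genes called larger in captures, blue 83 called larger in pools, and the dashed line equal spread. The red genes have a pool deviation of at most 1.13, and Mup7 has the largest deviation among them.

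Pomc, the precursor of adrenocorticotropin and a hormone gene known from some neuroendocrine lung tumours (chromosome 12, 3954951 to 3960642), had the smallest adjusted p. It had 0 to 164 CPM in captures (median 7.56, counts in 21 of 31) and 0 to 71.4 CPM in pools (median 0, counts in 4 of 24). Captures thus ranged from none to a clear signal, while 20 of 24 pools held no count. The difference in spread was 1.97 ± 0.34 (SE, limma adjusted p 0.00121). It was 1.31 and no longer called among libraries of like spike-in share.

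Mup7 (chromosome 4, 60066469 to 60070475) had 0 to 904 CPM in captures (median 23.0, counts in 19 of 31) and 0 to 52.2 CPM in pools (counts in 6 of 24). Its difference in spread was 2.58 ± 0.47 (limma adjusted p 0.00122), and its mean was also higher in captures (log2 fold change 4.31 ± 1.21 SE, edgeR adjusted p 0.018). Mup7 rose with Alb in captures, with a slope of 0.75 ± 0.16 and an r of 0.63. In libraries of low Rpl19-ps11 level its difference in spread was 0.92, without a call.

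The other named genes of larger spread in captures serve many parts of the cell. Golga1, a Golgi tethering protein (chromosome 2, 39016155 to 39065541), had 0 to 461 CPM in captures (median 4.16) and 0 to 4.02 CPM in pools (median 0), and its mean was higher too (log2 fold change 5.65 ± 1.03 SE, edgeR adjusted p 0.000355). Kcnk3, a potassium leak channel (chromosome 5, 30588170 to 30625271), had 0 to 118 CPM in captures (median 2.40) and 0 to 10.1 CPM in pools. Pik3ip1, which restrains PI3 kinase (chromosome 11, 3330401 to 3342971), had 0 to 228 CPM in captures (counts in 19 of 31) and no count in any pool, where 3 counts over all pools would be 0.0345 CPM.

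For these 3 genes the difference in spread was 1.80 ± 0.34, 1.43 ± 0.32 and 1.86 ± 0.40 (limma adjusted p 0.00171, 0.0133 and 0.0109). Pik3ip1, without a count in pools, had to have a deviation of 0 there. As for all genes called larger in captures, these differences and those below cannot be told apart from differences of level. Apool, of the mitochondrial inner membrane, Flii, an actin remodeller, Dnajc4, a co-chaperone, Cyb561d2, a cytochrome b561 family member, and Trim3, a ubiquitin ligase of the TRIM family, had differences of 1.56 to 1.88. Their highest capture levels were 80.4 to 280 CPM and their highest pool levels 9.61 to 38.9 CPM. Apool had a difference of -0.16 in libraries of low Rpl19-ps11 level. Without the 5 pools that stood apart, Pomc, Mup7, Apool, Flii, Dnajc4 and Golga1 were still called, and Pik3ip1, Cyb561d2, Trim3 and Kcnk3 were not, at differences of 1.30 to 1.86.

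Genes of larger spread in pools were in most cases counted in every capture (67 of 83), and 72 of the 83 had no count in at least 1 pool. For 63 of the 83 this held in at least 1 of the 5 pools that stood apart, and for 57 in at least 1 other pool. Without the 5 pools that stood apart, 3 genes were called in this direction and no list member. The 83 genes had a median level of 127 CPM in captures and 137 CPM in pools, and counts in a median of 31 of 31 captures and 21 of 24 pools. Over all tested genes these were 23.2 and 28.0 CPM, and 27 captures and 17 pools. A missing count in some pools is therefore no trait of the 83 genes. Ube2z, a ubiquitin-conjugating enzyme (chromosome 11, 96047432 to 96065388), had 0.18 to 866 CPM in captures (median 68.8) and 0 to 4258 CPM in pools (median 14.6), a difference in spread of -2.27 ± 0.40 (limma adjusted p 0.00122). Bex3, a small adaptor of neurotrophin signalling (chromosome X, 136270253 to 136271978), had 54.3 to 829 CPM in captures (median 224) and 0 to 1276 CPM in pools (median 98.9), a difference of -1.80 ± 0.34 (limma adjusted p 0.00215).

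Both genes were counted in all 31 captures but in 19 and 23 of 24 pools. Atp6v0b, a subunit of the proton pump of lysosomes and granules, and Prpsap1, a regulator of nucleotide synthesis, had differences of -1.65 ± 0.33 and -1.66 ± 0.33 (limma adjusted p 0.00334 and 0.00363). Cdk1, the kinase that starts mitosis (chromosome 10, 69335146 to 69352938), had 1.28 to 185 CPM in captures (median 59.3) and 0 to 500 CPM in pools (median 37.3, counts in 20 of 24), a difference of -1.71 ± 0.38 (limma adjusted p 0.0139). Psma4, a subunit of the proteasome core, had a difference of -1.68 ± 0.43 (limma adjusted p 0.0271), and all 14 core subunits had the larger deviation in pools. Without the 5 pools that stood apart, the differences of Ube2z and Atp6v0b were -1.86 and -1.27 and still called, and those of Bex3, Prpsap1, Cdk1 and Psma4 were -0.84 to -1.62 without a call. Among libraries of like spike-in share the differences of Prpsap1 and Psma4 were -0.11 and -0.10, without a call.

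**Figure D5:**
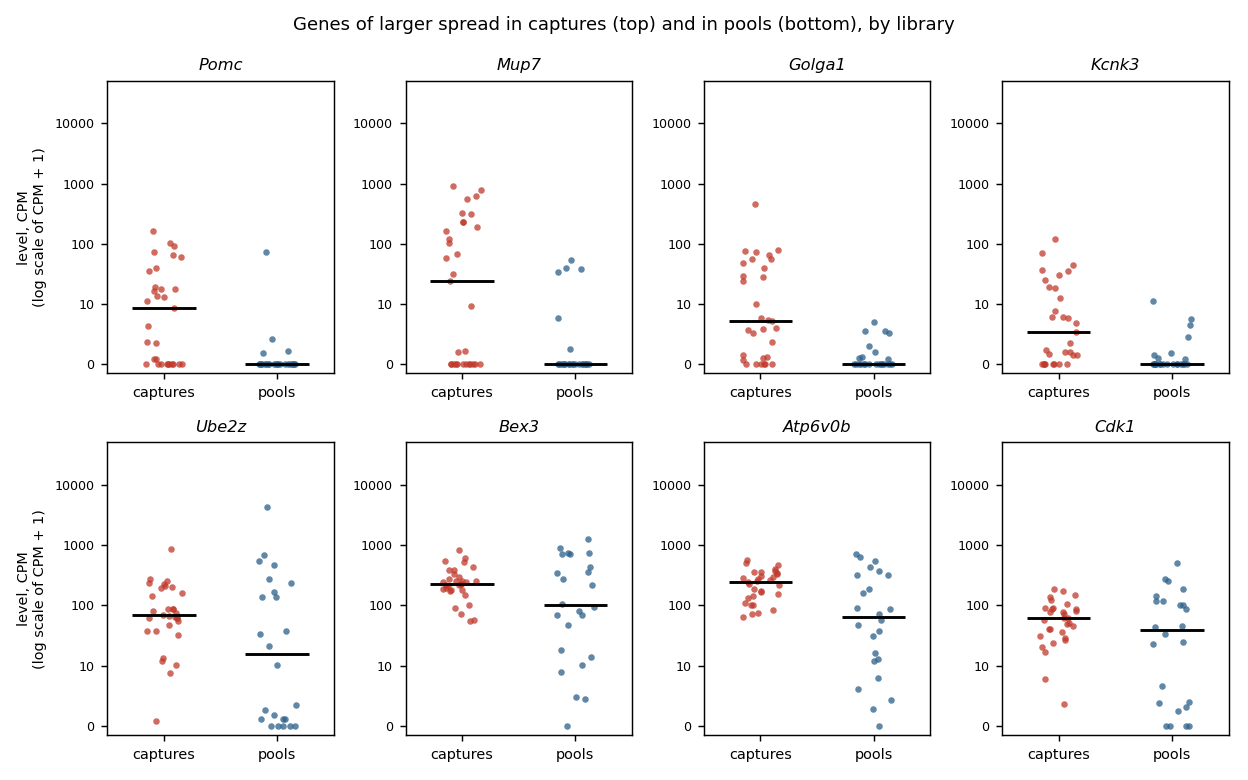
Level in each of 31 captures and 24 pools of 4 genes of larger spread in captures (top) and 4 of larger spread in pools (bottom), in CPM on a log scale of CPM + 1; bars are medians. The top genes sit at 0 in most pools, and the bottom genes were counted in all 31 captures, and some pools lie at or near 0.

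Mean levels showed how far pools and captures held the same material. edgeR called 465 of 6439 genes (7.22% called), 109 higher in captures (1.69% called) and 356 lower (5.53% called), with a median log2 fold change of -0.24 over all tested genes. Without the 5 pools that stood apart, 91 genes were higher and 206 lower. With the spike-in share as a covariate 5 genes were called, at a median log2 fold change of -0.21, and among the libraries of like share none was, with 363 genes higher and 366 lower at an unadjusted p under 0.05 in edgeR. The part of the spike-in share in the result was not tested. With limma-voom the split of calls turned, to 417 higher and 116 lower at a median of 0.69, so the split of calls by direction depends on the tool.

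Of the list members tested for the mean, 4 of 138 were called, a smaller share than the 7.22% over all genes: Sez6, a neuronal surface protein, and mt-Nd3, a mitochondrially encoded subunit of respiratory complex I, were higher in captures, and Uhrf1, a DNA methylation maintenance factor, and Psmb4, a proteasome subunit, were lower. None of the 9 hepatocyte, 4 erythrocyte, 2 macrophage and 26 mitosis genes tested was called. At an unadjusted p under 0.05 in edgeR, 1 hepatocyte gene was higher and 7 mitosis genes were lower, beside 6.07% of all genes higher and 15.1% lower. Sez6 and Psmb4 were not called without the 5 pools that stood apart. mt-Nd3 had 72.2 to 861 CPM in captures (median 293) and 0 to 419 CPM in pools (median 86.3), a log2 fold change of 1.46 ± 0.37 SE (edgeR adjusted p 0.00886).

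Uhrf1 had a median of 2.88 CPM in captures and 1.38 CPM in pools, while its fitted mean was lower in captures (log2 fold change -2.48 ± 0.78 SE, edgeR adjusted p 0.0388). Its highest pool stood at 724 CPM and the next at 39.3 CPM, and its direction turned under limma-voom. Snap23 and Gm14443, lower in captures, had highest pools of 2219.6 and 6028 CPM, over pool medians of 3.17 and 6.56 CPM. Fgd4, an exchange factor of Cdc42, had 1.25 to 112 CPM in captures (median 20.6) and 3.51 to 1582 CPM in pools (median 109), a log2 fold change of -3.13 ± 0.48 SE (edgeR adjusted p 2.88e-05). Zdhhc21, a palmitoyl transferase, and Gm43960 had log2 fold changes of -2.28 ± 0.39 SE and -3.44 ± 0.59 SE (edgeR adjusted p 0.000184 each).

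Of the genes higher in captures, Rpl39, Rpl37 and Rpl28-ps1, transcripts of ribosomal proteins and a processed copy of one, had log2 fold changes of 1.24 to 1.32. Rpl39 had 234 to 1532 CPM in captures (median 791) and 109 to 678 CPM in pools (median 324), and the groups overlapped. Of 77 ribosomal protein genes, a set chosen after the data were seen, 30 were higher and none lower in captures, with a median of 0.51, beside 1.69% of all genes higher. With DESeq2 17 were higher and 2 lower, and with RLE scaling 23 and 1. That count went to 0 with the spike-in share as a covariate, at a median of 0.62. Ribosomal genes share reads with many pseudogenes and are uncertain singly.

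The excess of capture spread over pool spread was also set against that in other settings, each with its own pools. Against the colonies of nude mice, 1 of 9417 genes had a larger excess in F1 liver (0.0106% called) and 9 a smaller one (0.0956% called). The larger one was Mup7, which entered the fit through its F1 level alone: so near 0 in nude liver, its spread there had to be small, and the difference of 2.56 cannot be told apart from one of level. Its mean level was 152 CPM in F1 captures and 6.94 CPM in F1 pools, against 0.19 and 0.21 CPM in nude captures and pools.

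Among the 9 were Gm15807, Gm17555, Cdk15 and Gm7416 by rule, and Fcgr2b, the inhibitory immunoglobulin receptor of liver sinusoids, from the endothelial list. Fcgr2b had a mean of 5.56 CPM in F1 captures and 23.6 CPM in F1 pools, but 187 and 161 CPM in nude liver, and a difference in excess of -2.22 ± 0.50 (limma adjusted p 0.0254). With levels so far apart, spread and level cannot be told apart for Fcgr2b. C3, a complement protein named after its value was seen, had 30.8 and 96.6 CPM in F1 captures and pools and 388 and 295 CPM in nude ones.

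Against spheroids in culture, 11 of 8929 genes had a larger excess in F1 liver (0.123% called) and 34 a smaller one (0.381% called). The larger ones included Apool, Hibadh, an enzyme of valine breakdown, and Mgme1, a mitochondrial exonuclease, with differences of 1.86 to 2.09. They had counts in 6, 4 and 4 of the 24 F1 pools, so spread and level cannot be told apart for them. Mup7 was also called, but it had no count in spheroids, so its value of 2.58 repeats that of F1 liver. The smaller ones included Bex3, Prpsap1, Atp6v0b, Cdk1, Psma4 and Tmed10, a carrier between endoplasmic reticulum and Golgi, with differences of -1.86 to -2.34. Cdk1 had an excess of -1.71 in F1 liver and 0.38 in spheroids (difference -2.09 ± 0.46, limma adjusted p 0.0154), and the spread of the F1 pools enters both this comparison and the one above. Neither was run without the 5 F1 pools that stood apart, where Bex3, Prpsap1, Cdk1 and Psma4 had lost their calls for spread.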

How the data were processed

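RNA was sequenced from 55 libraries, 31 captures and 24 pool-and-split controls. The deposited table holds the authors' expected counts (estimates, not whole numbers), without scaling; the submitters' processing notes name Bowtie2, RSEM, GRCm38 and GRCh38.p12, with no roles. Coordinates are those of the table. Counts were rounded for edgeR; 92 ERCC rows were kept out of library sizes and tests, and CPM was computed over the 31581 genes. No molecular identifiers are stated, so floors cover counting error only.

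Means were compared with edgeR 4.0.16 (TMM, filterByExpr, quasi-likelihood test), and spread, slopes and excess spread with limma 3.58.1 (robust eBayes) in R 4.3.3, on log2(CPM + 1) of genes whose mean reached 5 CPM, which understates changes of low genes. A call is a Benjamini-Hochberg adjusted p under 0.05. Correlations carry two-sided permutation p-values (100000 resamples). Fits were tested on simulated data. Replicate numbers entered no main test.

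Captures, pools and 20 gene lists (313 genes, 2 of them not measured) were chosen with earlier results of these data known. Named are the 10 genes of larger spread in captures and 4 in pools of smallest adjusted p (mean of at least 10 CPM in a group), 5 per direction for means, up to 5 per index gene and 4 per direction of excess spread, with called and leading list members; a few of these genes are not reported here. An index gene is the list member of highest mean log level. Alternatives were other scalings, pseudocounts, filters, depths, spike-in handling, tools (DESeq2 1.42.0, limma-voom) and left-out libraries. No 2 libraries of a group were alike within sampling noise (lowest chi-squared per degree of freedom 125 in captures and 251 in pools).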

Additional observations from a re-analysis of the deposited data

Results flagged for a closer look

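Several genes had an excess of capture spread over pool spread that differed between F1 liver and another setting, by the limma test of that difference (log2 scale, F1 minus the other). Against nude liver the differences were 2.56 for Mup7, -1.70 for Gm15807, -2.68 for Gm17555, -1.42 for Cdk15, -1.76 for Gm7416 and -2.22 for Fcgr2b. Mup7 was near 0 in nude liver and without counts in spheroids, and Gm15807, Cdk15 and Gm7416 had means of 0.28 to 5.55 CPM in F1 liver, so for these genes spread and level cannot be told apart. Fcgr2b had a far lower mean in F1 liver than in nude liver. Gm17555 had a lower mean in F1 captures than in F1 pools (log2 fold change -4.22, edgeR adjusted p 0.00112). The same limit holds for both. Against spheroids the differences were 2.58 for Mup7, 2.09 for Apool, 1.98 for Cyb561d2, 1.88 for Mgme1, 1.86 for Hibadh and 1.86 for Flii. Mgme1, Hibadh and Cyb561d2 had counts in 4 of 24 F1 pools each, Apool in 6 and Flii in 7, so that spread and level cannot be told apart for them. Smaller excess in F1 liver than in spheroids was seen for Tmed10 (-2.34), Prpsap1 (-2.27), Ube2z (-2.13), Bex3 (-2.10), Cdk1 (-2.09), Psma4 (-1.92) and Atp6v0b (-1.86).

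The slope on an index gene differed between captures and pools, by the test of the difference, for 1 gene each with 2 index genes. Nploc4, a cofactor of protein extraction from membranes, had a slope on Rbp4 of -0.19 in captures and 0.55 in pools (difference -0.74, limma adjusted p 0.0189). Spc25, a kinetochore subunit, had a slope on Cd74 of -0.25 in captures and 0.70 in pools (difference -0.96, limma adjusted p 0.0397).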

How the results depend on the processing

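Counts of spread calls, 130 as reported, were 55 with a pseudocount of 5, 39 and 0 among libraries of high and low Rpl19-ps11 level, 1094 for deviations from the mean, 0 at a spike-in share of 2 to 12%, and 133 (46 and 87) with the spike-in share regressed out. Without the 5 pools of fewest genes, a choice made after seeing the data, spread calls were 15 (12 and 3) and calls for the mean 297. List members of larger spread in captures went from 0 to 10 for deviations from the mean, and those of larger spread in pools from 2 to 28. With genes of at least 20 CPM, 19 and 103 genes had larger spread in captures and in pools, and with genes counted in 50% of each group 4 and 84. Calls for the mean, 465 as reported, were 846 with DESeq2, 4608 without a filter, 283 in high Rpl19-ps11 libraries, 5 with the spike-in share as covariate and 0 at a like share; limma-voom gave 417 higher and 116 lower. The same 22 replicate numbers occur in both groups, and same-numbered libraries did not deviate together (r -0.07 to 0.06). A portion of mixed material need not follow any single capture, so this does not show whether the numbers pair samples. With the replicate number as a block, 11 genes were called for spread (8 larger in captures) and 1 for the mean. Calls on Rbp4, 1 as reported, were 0 with a pseudocount of 5, with TMM, with ranks and without the 2 extreme captures, and 15 with Alb as index. Calls on Alb, 15 as reported, were 9 with TMM, 0 with ranks and 5 without the 2 extreme captures. Calls on Cd74, 1 as reported, were 0 with ranks and 2 in high Rpl19-ps11 captures, and calls on Mki67, 0 as reported, were 7 without the 2 extreme captures. Excess spread against nude liver, 10 calls as reported, gave 5 with a pseudocount of 5 and 5 at 20 CPM; against spheroids, 45 as reported, it gave 17 with a pseudocount of 5, 82 with TMM, 104 at 20 CPM and 28 with high Rpl19-ps11 libraries. Signs turned for the spread of Apool in low Rpl19-ps11 libraries (-0.16) and for the mean of Uhrf1 with limma-voom (0.21), in high Rpl19-ps11 libraries (0.35), under the block (0.86) and at a like spike-in share (0.90), where those of Snap23 (0.014) and Gm14443 (0.97) turned too. Of the values for single named genes under alternatives, 369 kept their direction and side of the threshold, 123 kept only the direction and 7 turned. The cause of these changes was not tested, beyond the fewer libraries or genes that some settings hold.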
